A study of Bos taurus with 6 samples.

Results

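The Wnt module analysed here comprises the genes of Wnt ligands (WNT), Frizzled receptors (FZD), secreted antagonists (SFRP, FRZB, WIF1, DKK and NOTUM), co-receptors, intracellular transducers and feedback inhibitors. Members were taken by gene name, and 55 of the 27607 genes in the deposited tables met the rule. The module itself was proposed with earlier results of these data known, so counts of its members are a description. They comprise 19 ligands, 15 receptors and co-receptors, 11 secreted antagonists, 6 transducers and 4 feedback inhibitors and targets. Messenger RNA had been sequenced from bovine (Bos taurus) chondrocytes of the deep zone of articular cartilage. All 6 cultures carried a lentivirus with doxycycline-inducible bovine CREB5, which encodes a DNA-binding protein related to CREB and ATF2, had been selected in G418 (500 µg/ml, 11 days), and were kept for 3 days on low attachment plates with 10% FBS, TGFa at 100 ng/ml and TGFb2 at 20 ng/ml. The 3 Dox- libraries came from cultures without doxycycline, and the 3 Dox+ libraries from cultures with doxycycline at 1 µg/ml as the treatment protocol gives it. No culture without the lentivirus and none with doxycycline but no CREB5 was among these samples, so the drug itself and CREB5 cannot be told apart in this comparison. Knees had been collected independently 3 times as the source of the cells, and libraries are numbered 1 to 3 in each group.

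Wnt proteins are secreted, lipid-modified ligands that bind Frizzled receptors. With the co-receptors LRP5 or LRP6 they stop the breakdown of beta-catenin, which then acts with TCF and LEF factors on target genes, and with ROR or RYK receptors they act without beta-catenin. Secreted Frizzled-related proteins (SFRPs) and WIF1 bind Wnts outside the cell, DKK proteins block LRP5 and LRP6, and AXIN2, NKD and APCDD1 are induced by the pathway and dampen it. In cartilage, Wnt signalling is known for its part in joint formation, in chondrocyte hypertrophy and in the upkeep of the articular surface.

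Library depth ranged from 20063379 reads (Dox+ 3) to 122366790 reads (Dox+ 2). CREB5 (ENSBTAG00000018909) averaged 382 ± 111 normalized counts in Dox- and 18437 ± 5242 in Dox+ libraries (n = 3). It was 41.1, 40.4 and 66.5 times higher in Dox+ within the pairs numbered 1, 2 and 3, as the labels have it. All 8 chondrocyte markers examined had a mean of at least 10. Their summed level was 71593 to 179469 in Dox- and 35774 to 60157 in Dox+ libraries, without overlap. The sum of 7 synovial fibroblast markers (5 at or above 10), which include COL1A1, also lay lower, at 601469 to 825439 and 339524 to 496612. The 6 smooth muscle and pericyte markers (4 at or above 10) summed to 2775 to 8130 in Dox- and 5945 to 17283 in Dox+. For all 4 adipocyte markers (3 at or above 10) the sums were 147 to 317 and 305 to 468. For all 6 leukocyte markers (3 at or above 10) they were 204 to 460 and 381 to 714. For all 4 osteoblast markers (1 at or above 10, DMP1 at 0) they were 643 to 1860 and 266 to 1232. The 6 endothelial markers summed to at most 130 with CLDN5 at 0, and the 5 skeletal muscle markers to at most 39.1 with MYH1, MYH2 and ACTA1 at 0. The globin gene HBA lay at 61116 to 107970 normalized counts in Dox- and 21380 to 46180 in Dox+, without overlap. In the limma fits described below its adjusted p was 0.2 without the replicate block and 0.023 with it. The part of these shifts in the results for Wnt genes was not tested, and in bulk RNA fewer cells of a type and less RNA per cell cannot be told apart.

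In limma without the replicate block, the ligand gene WNT16 and the antagonist gene SFRP4 were higher in Dox+ cells. No member was lower in that fit at the threshold used. With the block, described below, FRZB and SFRP2 were called higher as well, and FZD1, FZD9 and SFRP1 lower. Values are normalized counts, that is, reads divided by 1 size factor per library. They are given as mean ± SD over 3 libraries, and each log2 fold change is the Dox+ mean minus the Dox- mean of log2(normalized count + 1). Of the 55 members, 42 had a mean of at least 10 and were tested among 13180 genes with limma at a Benjamini-Hochberg adjusted p under 0.05. Of the 42, 2 were higher and 0 were lower, against 2.52% of all tested genes higher, 0.357% lower and 2.88% in either direction. At an unadjusted p under 0.05 in limma, 8 members were higher and 6 lower, beside 1395 of the 13180 tested genes in either direction. The same background applies to the unadjusted counts by role given below. On the reads behind the values, edgeR called 2 higher and 0 lower, beside 2.3% and 0.296% of all genes (2.59% in all). DESeq2 called 3 higher (WNT16, SFRP4 and FRZB) and 1 lower (FZD1), beside 4.12% and 1.21% (5.33% in all). A sole member, WIF1, reached the minimum through the Dox+ group alone. The median log2 fold change of the 42 was 0.08, beside -0.0036 for all tested genes, and 22 lay above and 20 below 0.

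Libraries with the same number deviated from their group means together, though weakly for those numbered 3, so a fit with the number as a block was made as well. It called 7 of the 42 members, 4 higher and 3 lower, against 4.86% of all tested genes higher, 1.65% lower and 6.51% in either direction. WNT16, SFRP4, FRZB and SFRP2 were higher, and FZD1, FZD9 and SFRP1 were lower. In 25 of the 42 members all 3 same-numbered pairs moved one way (14 higher, 11 lower). Over all tested genes, 5076 of 13180 (38.5%) did so in either direction. The groups did not overlap in 9 of the 42 members (6 higher, 3 lower). Over all tested genes this held for 1999 of 13180 (15.2%, with 8.88% higher and 6.29% lower). Leaving out a pair as well as blocking, FZD1 lost its call without the pair numbered 1 (limma adjusted p = 0.054). SFRP2 lost its call without that numbered 1 or 2 (0.14 and 0.15), while the other 5 kept theirs. Such fits have 1 residual degree of freedom and lean on variance borrowed across genes, so a kept call says little. In the authors' deposited table, which gives an adjusted p for 44 members, 5 were higher (WNT16, SFRP4, FRZB, SFRP2 and DKK2) and 4 were lower (FZD1, FZD9, SFRP1 and TCF7) at the same threshold, beside 5.24% of all genes with such a p higher, 2.05% lower and 7.3% in all.

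**Figure D1:**
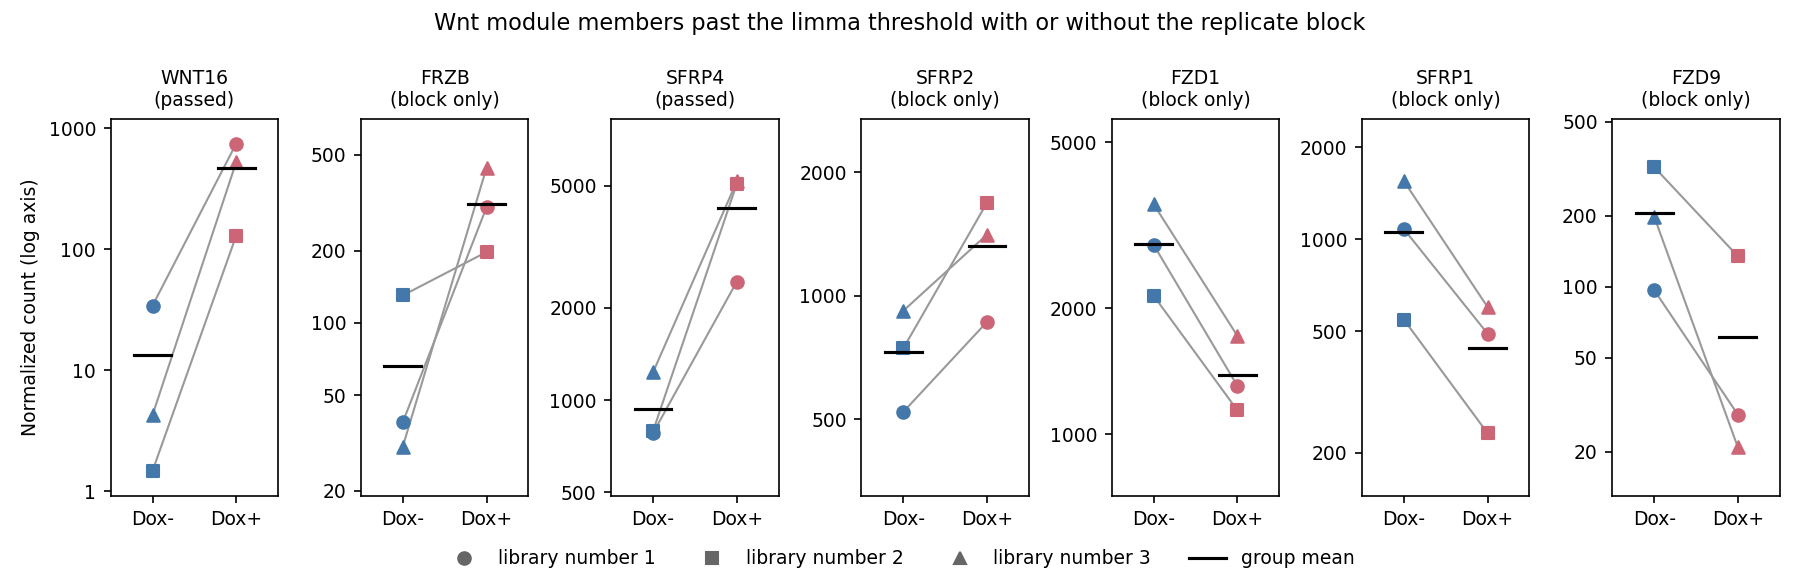
Normalized counts (log axes, scaled per gene) of the 7 members past the limma threshold, with or without the replicate block, in the 3 Dox- and 3 Dox+ libraries; lines join libraries of the same number and black bars are group means. WNT16, FRZB, SFRP4 and SFRP2 lie higher in Dox+ in each pair and FZD1, SFRP1 and FZD9 lower, while the 3 libraries of a group differ widely for WNT16 and FZD9.

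Among the ligands, WNT16 (ENSBTAG00000002940) was the only tested gene to pass. WNT16 is a ligand with known roles in cortical bone and is expressed in joint tissues. Its level was 34.3, 1.48 and 4.28 normalized counts in Dox- 1, 2 and 3, against 750, 130 and 528 in Dox+ 1, 2 and 3. Every Dox+ library thus lay above every Dox- library, although the value of Dox- 2 rests on 1 read and the 3 Dox- libraries together hold 64 reads, against 965 in Dox+. The means were 13.4 ± 18.2 and 469 ± 314 (n = 3), and the fitted log2 fold change was 5.59 (SE 1.00, 95% interval 3.33 to 7.86), a 48.3-fold rise with a limma adjusted p of 0.019. Within the same-numbered pairs WNT16 was 21.8, 88.0 and 123 times higher. With the block the limma adjusted p was 6e-05. Without the block the call was lost when Dox- 2, Dox- 3, Dox+ 1 or Dox+ 3 was left out (limma adjusted p = 0.054, 0.082, 0.08 and 0.13). Over 17 alternatives the adjusted p ranged from 1.2e-30 to 0.13. The lowest came from limma with the block and without the pair numbered 2, a fit with 1 residual degree of freedom.

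The other 7 tested ligands did not pass, with fitted log2 fold changes from -0.93 to 1.40. WNT5A, a ligand that mostly acts without beta-catenin, had 89.5, 11.8 and 20.2 normalized counts in Dox- 1, 2 and 3, against 174, 27.4 and 90.7 in Dox+ 1, 2 and 3. Dox+ 2 lay below Dox- 1, yet each Dox+ library was 1.95 to 4.49 times its own partner (limma adjusted p = 0.71, and 0.079 with the block). WNT5B, its close relative, went the other way in each pair, with 906, 359 and 649 in Dox- and 619, 210 and 498 in Dox+, ratios of 0.683, 0.585 and 0.767 (limma adjusted p = 0.82, 95% interval of the log2 difference -1.62 to 0.48). In both WNT5A and WNT5B, library 2 was the lowest of its group. The RefSeq gene of WNT5B overlaps FBXL14 and that of WNT2B overlaps ST7L. The sources used here do not state whether counting used strand, so reads of overlapping genes could be mixed.

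WNT2B, a ligand of the beta-catenin branch, had 210, 158 and 368 in Dox- and 146, 108 and 179 in Dox+, lower in 3 of 3 pairs without separation of the groups (limma adjusted p = 0.63). WNT7B, a ligand known from lung and bone, had 182, 135 and 269 in Dox- against 107, 132 and 67.4 in Dox+. Those groups did not overlap, but the pair numbered 2 was nearly level (ratio 0.98) and the adjusted p was 0.43. WNT11, known from planar polarity, was 60.4 ± 24.9 and 120 ± 59.9 (n = 3), higher in 3 of 3 pairs (limma adjusted p = 0.57). WNT10B and WNT9A had log2 fold changes of -0.37 (95% interval -1.18 to 0.44) and -0.22 (-1.16 to 0.72), so neither interval reaches a rise of 1 log2 unit, while a fall of that size lies within both.

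Of the 11 ligands below the minimum, WNT3A, WNT7A, WNT8A, WNT8B and WNT9B had 0 reads in all 6 libraries. WNT2 had 1 read in all, WNT6 had 1, WNT3 had 2 and WNT10A had 3, each in Dox+ libraries and at or under the floor of 3 reads. WNT1 had 4 reads in each group. WNT4, known from joint development, had 20 reads in Dox- and 10 in Dox+, a ratio of 0.60 after scaling with an exact 95% interval of 0.25 to 1.34, which covers counting error only. A floor of 3 reads was worth 1.32 (Dox+ 2) to 6.98 (Dox+ 3) normalized counts, so low ligands could be missed more easily in Dox+ 3.

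**Figure D2:**
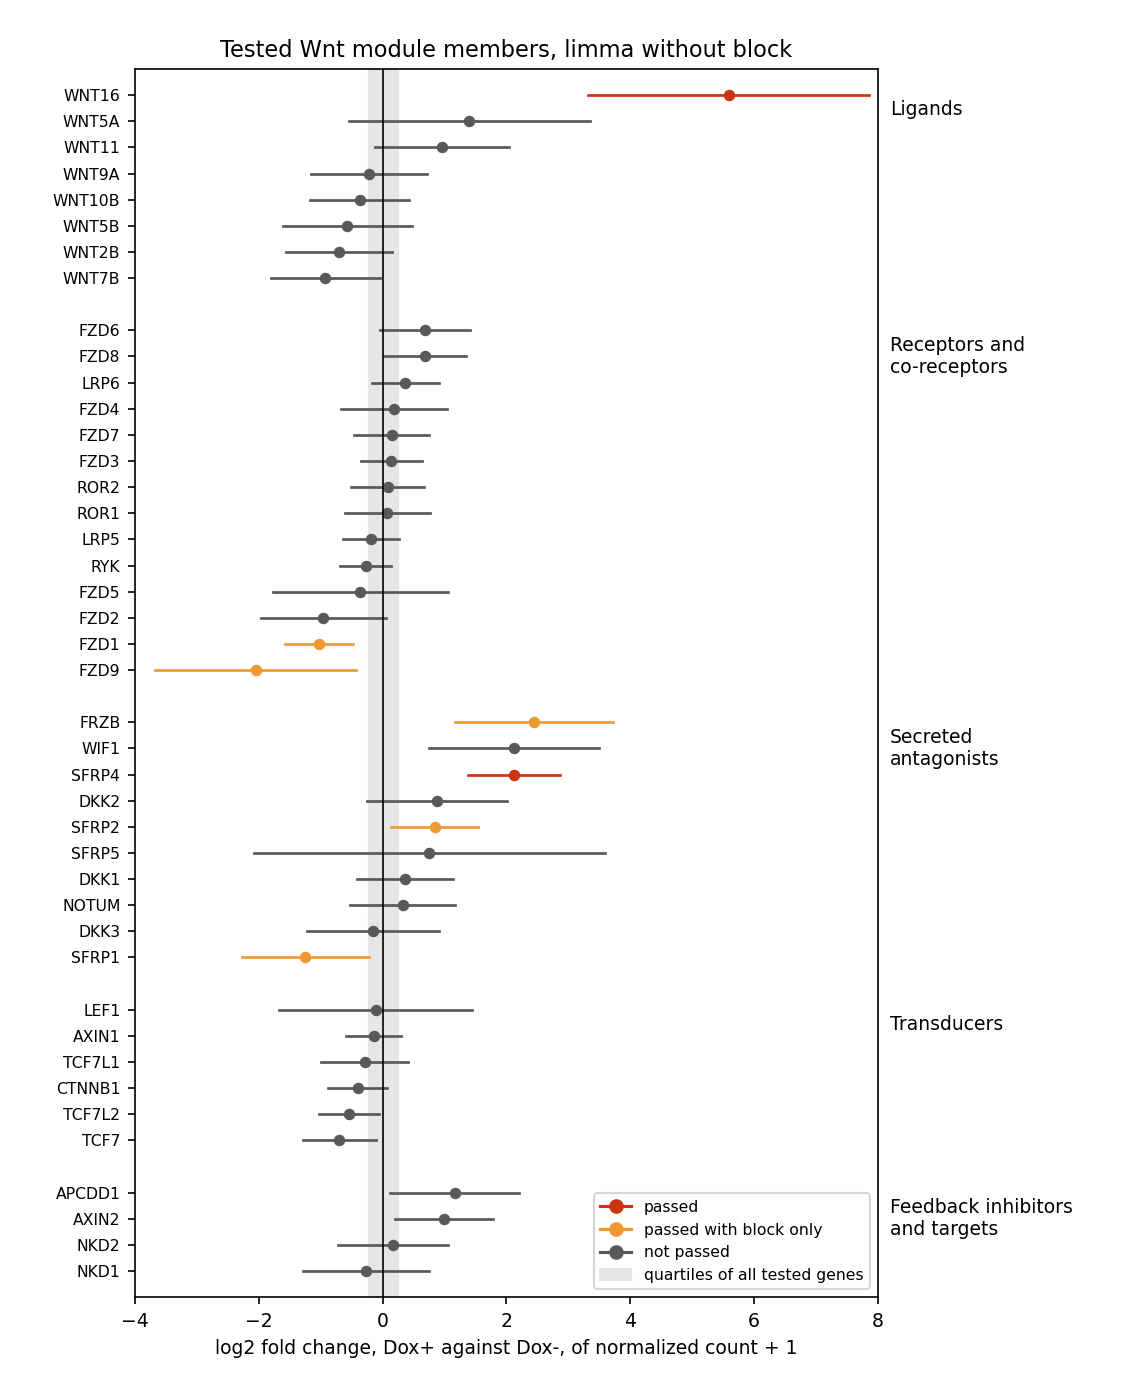
Fitted log2 fold change (x axis, Dox+ against Dox-, of normalized count + 1) with its 95% limma interval for the 42 tested members, by role; red passed, orange passed with the replicate block only, grey did not pass, and the band spans the quartiles of all tested genes. WNT16 stands farthest from 0 at 5.59, the antagonists FRZB, WIF1 and SFRP4 lie between 2.13 and 2.45, and all 6 transducers lie below 0 without passing.

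No receptor or co-receptor passed limma without the block (0 of 14 tested, with 1 higher and 2 lower at an unadjusted p under 0.05; edgeR called 0 and DESeq2 called 1 lower). FZD1 (ENSBTAG00000002107), a broadly expressed Frizzled, had 2841, 2146 and 3553 normalized counts in Dox- 1, 2 and 3, against 1306, 1142 and 1721 in Dox+ 1, 2 and 3. The groups did not overlap, and the ratios within pairs were alike, at 0.46, 0.53 and 0.48. The means were 2847 ± 704 and 1390 ± 298 (n = 3), a log2 fold change of -1.03 (SE 0.24, 95% interval -1.58 to -0.47). The limma adjusted p was 0.074, and 0.0051 with the block, where FZD1 fell by 1.03 on the log2 scale. DESeq2 without the block gave an adjusted p of 0.0057, and edgeR gave 0.079.

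FZD9 (ENSBTAG00000051341), a Frizzled with a known role in bone formation, had 96.9, 321 and 198 in Dox- 1, 2 and 3, against 28.8, 135 and 20.9 in Dox+ 1, 2 and 3. Library 2 was the highest of each group, so Dox+ 2 lay above Dox- 1 although each pair was lower, with ratios of 0.30, 0.42 and 0.11. The log2 fold change was -2.05 (SE 0.72), with a limma adjusted p of 0.28, and 0.013 with the block. Without Dox+ 2 and without the block the adjusted p was 0.036.

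FZD2, which can signal with or without beta-catenin, had 119, 143 and 357 in Dox- and 88.0, 82.1 and 114 in Dox+ (limma adjusted p = 0.52), lower in 3 of 3 pairs with Dox- 3 far above the other Dox- libraries. FZD6 and FZD8 pointed the other way, at 642 ± 190 and 1051 ± 373 and at 496 ± 188 and 770 ± 126 (n = 3), each higher in 3 of 3 pairs with overlapping groups (limma adjusted p = 0.52 and 0.45). FZD3, FZD4 and FZD7 had log2 fold changes of 0.15, 0.18 and 0.15, and FZD5, with 10.2 to 35.0 normalized counts, had -0.36. FZD10 was below the minimum, with 1 read in Dox- and 15 in Dox+. That is a ratio of 18.0 with an exact 95% counting interval of 2.77 to 757. With no filter on low values limma gave FZD10 an adjusted p of 0.047, a value that rests on those reads alone.

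None of the 5 co-receptors passed (0 in limma, edgeR and DESeq2, and 0 at an unadjusted p under 0.05), with log2 fold changes between -0.27 and 0.37. RYK, a kinase-like receptor of Wnt ligands, was 3269 ± 457 and 2702 ± 291 (n = 3), with 3074, 2942 and 3791 in Dox- and 2461, 2620 and 3025 in Dox+, and its 95% interval was -0.68 to 0.14 (limma adjusted p = 0.75). ROR2, the receptor through which WNT5A is best known to act in cartilage, had 1207, 951 and 1716 in Dox- and 1220, 1168 and 1644 in Dox+ (log2 fold change 0.08, 95% interval -0.51 to 0.67), and its sign turned without Dox- 2 or Dox+ 3. ROR1, its relative, had 0.07 (95% interval -0.61 to 0.76). LRP5 and LRP6, the co-receptors of the beta-catenin branch, had -0.18 (95% interval -0.63 to 0.27) and 0.37 (-0.17 to 0.91).

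**Figure D3:**
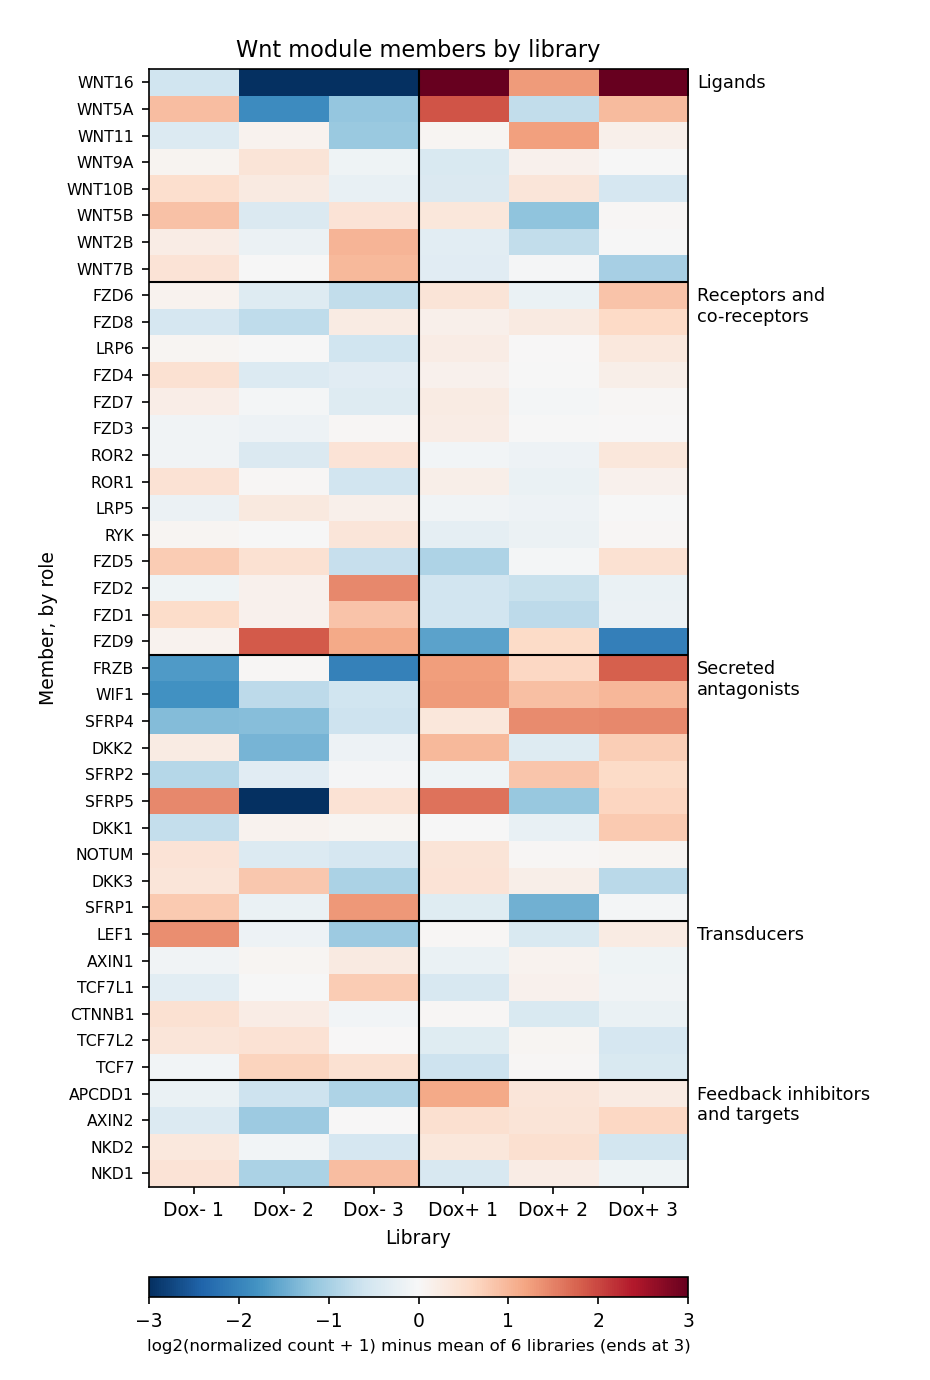
Level of each tested member in each library, as log2(normalized count + 1) minus the member's mean over the 6 libraries (colour scale ends at 3 either way), with the 3 Dox- libraries on the left and members ordered by role and fold change. Red in all Dox+ and blue in all Dox- libraries is seen among others for WNT16, WIF1, SFRP4 and APCDD1, while WNT5A and FZD9 differ strongly between libraries of one group.

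Of 10 tested secreted antagonists 1 was higher without the block, beside 2.52% of all tested genes. The blocked fit called 4 of them, 3 higher and 1 lower, beside 4.86% of all tested genes higher and 1.65% lower. SFRP4 (ENSBTAG00000015366), a secreted Frizzled-related protein known from bone and cartilage, had 781, 793 and 1233 normalized counts in Dox- 1, 2 and 3, against 2433, 5073 and 5165 in Dox+ 1, 2 and 3. Dox+ 1 was the lowest of its group and still above every Dox- library. The means were 936 ± 258 and 4224 ± 1551 (n = 3), a 4.37-fold rise with a limma adjusted p of 0.0091, and 0.00025 with the block (log2 fold change 2.13, SE 0.32). It was seen in 3 of 3 pairs, at 3.12, 6.40 and 4.19 times. The call was lost without Dox+ 3 (adjusted p = 0.069) and kept in the other 16 of 17 alternatives.

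FRZB (ENSBTAG00000010977), also called SFRP3, is a Wnt antagonist first known from articular cartilage. It had 38.6, 130 and 30.6 in Dox- 1, 2 and 3, against 303, 197 and 442 in Dox+ 1, 2 and 3, without overlap, but with ratios within pairs as unequal as 7.84, 1.52 and 14.5. Library 2 was thus the highest Dox- and the lowest Dox+ library. The log2 fold change was 2.45 (SE 0.56), with a limma adjusted p of 0.063, and 0.019 with the block. Without Dox- 2 the adjusted p was 0.013 without the block. SFRP2, a fibroblast-enriched member of the family, had 522, 745 and 920 in Dox- and 865, 1689 and 1412 in Dox+. Dox+ 1 lay below Dox- 3, and the ratios were 1.66, 2.27 and 1.53. Its log2 fold change was 0.84 (SE 0.31), with a limma adjusted p of 0.32, and 0.034 with the block.

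SFRP1 (ENSBTAG00000027625) went against its relatives. It had 1080, 546 and 1551 in Dox- 1, 2 and 3, against 491, 232 and 600 in Dox+ 1, 2 and 3, where Dox+ 3 lay above Dox- 2. Ratios within pairs were even, at 0.45, 0.42 and 0.39, and the means were 1059 ± 503 and 441 ± 189 (n = 3). The log2 fold change was -1.25 (SE 0.45), with a limma adjusted p of 0.31, and 0.0039 with the block. In both groups the library numbered 3 was the highest and that numbered 2 the lowest. SFRP5, the other member of the family, had 0 to 23.7 normalized counts and an interval from -2.07 to 3.59, too wide to place.

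WIF1, Wnt inhibitory factor 1, is a known product of superficial and growth plate cartilage. It had 3.07, 7.39 and 8.56 in Dox- and 33.8, 26.0 and 27.9 in Dox+, on 24 and 91 reads, so the groups did not overlap. The log2 fold change was 2.13 (95% interval 0.75 to 3.50, limma adjusted p = 0.15, and 0.061 with the block). Among the Dickkopf genes, DKK2 had 302, 96.1 and 231 in Dox- and 501, 195 and 430 in Dox+. These groups overlapped while each Dox+ library was above its partner by a like ratio, at 1.66, 2.03 and 1.86 times (limma adjusted p = 0.66, and 0.063 with the block). DESeq2 with the block gave 0.021, and without it 0.6. DKK1, a direct blocker of LRP6, was 534 ± 154 and 699 ± 277 (n = 3), higher in 2 of 3 pairs (limma adjusted p = 0.84). DKK3, a divergent member whose action on Wnt is less settled, had 2260, 3093 and 901 in Dox- and 2323, 1971 and 1005 in Dox+, with libraries numbered 3 the lowest of each group. Its sign turned without Dox- 2 or Dox+ 3. DKK4 had 0 reads. NOTUM, an enzyme that removes the lipid from Wnt proteins, was 80.5 ± 30.2 and 97.4 ± 13.9 (n = 3, limma adjusted p = 0.88).

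None of the 6 transducers passed limma (0 of 6, with or without the block; edgeR and DESeq2 without the block 0; 2 lower and 0 higher at an unadjusted p under 0.05), and all 6 fitted values lay below 0, between -0.70 and -0.11. TCF7, a transcription factor that binds beta-catenin, had 1431, 2397 and 2083 normalized counts in Dox- 1, 2 and 3, against 982, 1558 and 1093 in Dox+ 1, 2 and 3. Dox+ 2 lay above Dox- 1, and the ratios within pairs were 0.69, 0.65 and 0.52. Its log2 fold change was -0.70 (SE 0.26), with a limma adjusted p of 0.33, and 0.052 with the block. DESeq2 with the block gave 0.016, and without it 0.22. TCF7L2, a factor of the same family, was close in pattern, with 2836, 2965 and 2205 in Dox- and 1702, 2267 and 1539 in Dox+, lower in 3 of 3 pairs (log2 fold change -0.55, 95% interval -1.03 to -0.06, limma adjusted p = 0.37).

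CTNNB1, which encodes beta-catenin itself, had 22244, 19159 and 15450 in Dox- and 16730, 11971 and 14260 in Dox+, with overlapping groups and lower values in 3 of 3 pairs (log2 fold change -0.40, 95% interval -0.88 to 0.07, limma adjusted p = 0.61). These are levels of its mRNA, and the protein, whose stability the pathway sets, was not measured. AXIN1, the scaffold of the complex that degrades beta-catenin, was 1094 ± 140 and 989 ± 115 (n = 3), with an interval from -0.60 to 0.31. TCF7L1 had a log2 fold change of -0.29, which turned to 0.0185 without Dox- 3. LEF1 had 63.2, 20.7 and 10.4 in Dox- and 23.7, 16.8 and 27.9 in Dox+. Its log2 fold change of -0.11 was 0.57 without Dox- 1, so no direction can be given for it, and its RefSeq gene overlaps a predicted gene.

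The feedback inhibitors, which are used as readouts of beta-catenin signalling, did not pass either (limma 0 of 4, with or without the block; edgeR and DESeq2 0; 2 higher and 0 lower at an unadjusted p under 0.05). AXIN2, a widely used target of the pathway, had 112, 69.5 and 149 normalized counts in Dox- 1, 2 and 3, against 210, 196 and 228 in Dox+ 1, 2 and 3. The groups did not overlap, and the ratios within pairs were 1.87, 2.82 and 1.53. Its log2 fold change was 1.00 (SE 0.35, 95% interval 0.21 to 1.79), with a limma adjusted p of 0.28, and 0.089 with the block. APCDD1, a membrane-bound inhibitor that binds Wnts and LRP5, had 33.7, 25.1 and 20.2 in Dox- and 88.0, 50.8 and 46.5 in Dox+, again without overlap, at 2.02 to 2.61 times within pairs (limma adjusted p = 0.37, and 0.14 with the block; log2 fold change 1.17, SE 0.46). NKD1 and NKD2, which bind Dishevelled, did not share this. NKD1 had 632, 246 and 897 in Dox- and 337, 548 and 430 in Dox+, lower in 2 of 3 pairs, and its sign turned without Dox- 3. NKD2 had 164, 124 and 91.7 in Dox- and 166, 184 and 88.4 in Dox+ (log2 fold change 0.18, 95% interval -0.71 to 1.07), and its sign turned without Dox- 3 or Dox+ 2.

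Outside the module, 83 further Wnt pathway genes were listed by function and 68 of them were tested. Of these 6 were higher and 0 were lower in limma (7 and 8 at an unadjusted p under 0.05; edgeR 5 and 0, DESeq2 7 and 1), and with the block 7 were higher and 4 lower. Over all tested genes the shares were 2.52% higher and 0.357% lower without the block, and 4.86% and 1.65% with it. At an unadjusted p under 0.05 in limma without the block, the number was 1395 of 13180 genes in either direction. The list was drawn up with earlier results of these data known, and 3 of the 68 (RSPO2, RNF43 and TLE2) reached the minimum mean through 1 group only, so its counts are a description. Of 12 tested extracellular modulators 4 rose, RSPO2 among them, which was tested only because of its Dox+ level. They were the R-spondin genes RSPO2 and RSPO3, at 167 to 579 and 8894 to 10197 normalized counts in the Dox+ libraries against at most 3.07 and 99.1 in Dox-, together with CTHRC1 and SOSTDC1. CTHRC1, a secreted protein that favours the Wnt planar polarity branch, had 10176, 7260 and 9219 in Dox- and 48354, 46274 and 56029 in Dox+, a narrow spread in each group (5.69-fold, limma adjusted p = 0.00022). SOSTDC1, a secreted antagonist of Wnt and BMP signals, had 14.7, 13.3 and 180 in Dox- and 697, 954 and 1167 in Dox+. Dox- 3 stood far above the other Dox- libraries (26.7-fold, limma adjusted p = 0.021), and the call was lost without Dox- 2, Dox+ 1, Dox+ 2 or Dox+ 3 (adjusted p = 0.069, 0.057, 0.056 and 0.13) and in edgeR (0.089). 

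Of 15 tested cytoplasmic genes 1 rose, DACT1, which binds Dishevelled and inhibits Wnt signals. It had 54.0, 23.7 and 33.6 in Dox- and 298, 221 and 328 in Dox+ (7.74-fold, limma adjusted p = 0.0048), and kept its call in all 17 alternatives. The 3 Dishevelled genes, the GSK3 genes and the casein kinase genes did not pass. None of 10 nuclear cofactors passed (0 in limma, edgeR and DESeq2, and 0 at an unadjusted p under 0.05). Of 15 commonly cited targets 1 rose, TNFRSF11B, which encodes the decoy receptor osteoprotegerin, with 102, 223 and 143 in Dox- and 3491, 4130 and 6337 in Dox+ (30.1-fold, limma adjusted p = 0.00012). MYC, a target often cited for growth, averaged 1248 ± 274 in Dox- and 1569 ± 231 in Dox+ (n = 3, limma adjusted p = 0.73), and CCND1, which encodes cyclin D, 1102 ± 278 and 859 ± 382 (n = 3, limma adjusted p = 0.83). With the block, ISM1, JUN, WLS, which carries Wnt proteins to the cell surface, and NFATC1 were lower (limma adjusted p = 0.00078, 0.048, 0.041 and 0.035) and BAMBI was higher (0.049). DESeq2 without the block also called ISM1 lower (adjusted p = 0.00085) and BAMBI higher (0.017). The log2 fold change of ISM1 was -1.83 (SE 0.46, limma adjusted p = 0.09 without the block), and its groups did not overlap. WLS had 9390, 10314 and 6031 in Dox- and 5987, 4662 and 4379 in Dox+, without overlap.

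**Figure D4:**
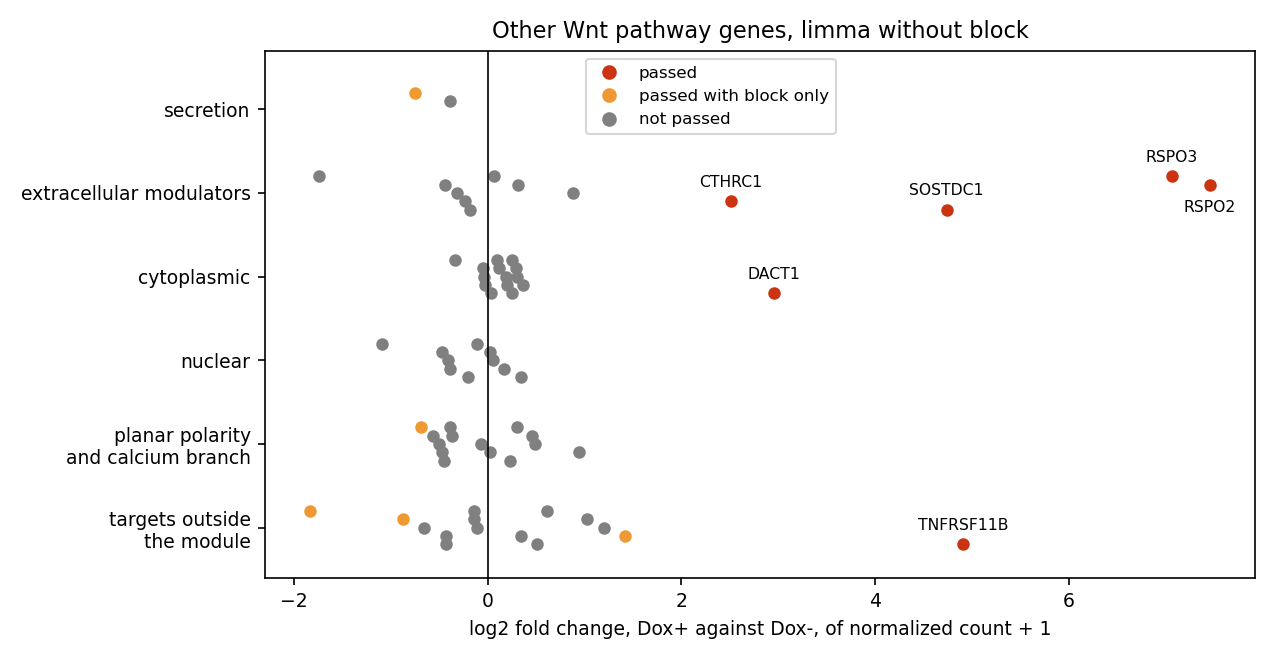
Fitted log2 fold change (x axis, Dox+ against Dox-, of normalized count + 1) of the 68 tested Wnt pathway genes outside the module, by function; points are offset up and down only to separate them, and colours mark genes that passed limma, passed with the replicate block only, or did not pass. The 6 genes that passed all lie above 2, and 4 of them are extracellular modulators.

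The chromosomal neighbours of the 7 members called with the block were also examined, a comparison chosen after the values had been seen. Gene order came from RefSeq's table of ARS-UCD2.0, a build other than that of the files, in which all 55 members were matched by symbol. Both neighbours of WNT16 were higher in Dox+ cells with the block, beside 4.86% of all tested genes. CPED1 had 1056, 778 and 360 normalized counts in Dox- and 2625, 1250 and 1900 in Dox+ (limma adjusted p = 0.14, and 0.014 with the block; log2 fold change 1.46, SE 0.41). FAM3C had 1909, 1402 and 857 in Dox- and 3868, 2101 and 3225 in Dox+ (1.17, SE 0.33, adjusted p = 0.14, and 0.018 with the block). For both genes every Dox+ library lay above every Dox- library, beside 8.88% of all tested genes. The other 6 neighbours that could be tested, CDK14 beside FZD1, BAZ1B beside FZD9, NCKAP1 and DNAJC10 beside FRZB, GOLGA7 beside SFRP1 and EPDR1 beside SFRP4, had log2 fold changes between -0.21 and 0.27, overlapping groups and a limma adjusted p of at least 0.57 with the block. FKBP6 beside FZD9, ZMAT4 beside SFRP1, RNF175 beside SFRP2 and NME8 beside SFRP4 were below the minimum. A neighbour of FZD1 and the other neighbour of SFRP2 were not matched, so neither neighbour of SFRP2 was tested.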

How the data were processed

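RNA-seq libraries (KAPA mRNA HyperPrep on Trizol RNA, per the labels' protocols) came from 3 Dox- and 3 Dox+ cultures, grouped and numbered by their titles. The signal values deposited by the authors are titled normalized counts; how they were scaled was read from the values themselves, which are whole multiples of 1 step per library. The authors' deposited table adds a log2 fold change with its SE and p-values. Per the submitters' processing notes the tools included DESeq2, Salmon and STAR 2.5.2b, beside MultiQC 1.2 and FastQC 0.11.3, with the bovine build ARS-UCD1.2, also listed as bosTau9. Annotation version and strand setting were not given there.

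The test was limma (3.58.1, R 4.3.3; lmFit, eBayes with trend, two-sided, group as the only term) on log2(normalized count + 1) in genes with a mean of at least 10, Benjamini-Hochberg adjusted over all of them. Reads were recovered by dividing by that step (100% whole within 0.01 read) for edgeR (4.0.16) and DESeq2 (1.42.0). Limma with and without the block, and edgeR and DESeq2 without it, were tested on simulated data that held no replicate effect. The edgeR and DESeq2 fits with the block were not tested in this way. Same-numbered libraries had correlations of their deviations from the group means of 0.65, 0.44 and 0.21, against -0.59 to 0.18 for differently numbered ones. The 0.18, between Dox- 3 and Dox+ 2, was close to the 0.21 of the libraries numbered 3. On this basis the numbers were taken to pair the libraries. The labels give 3 knees but do not tie numbers to knees. P-values rest on 3 libraries per group. Replicate libraries differed by far more than counting noise (chi-square per degree of freedom 57.9 to 435). Intervals of read ratios and floors cover counting error only; limma's intervals rest on the spread between libraries.

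Values per library are given for members past the threshold with or without the block, the 3 of highest mean and the 1 of largest fold change in each role; those of WNT5A, WNT7B, FZD2, WIF1, DKK2, LEF1 and WLS and of the WNT16 neighbours were added after the values had been seen. Members were taken by gene name, but the module and the lists were proposed with earlier results of these data known. Promoter motifs had been planned; no sequence was used here, and levels of different genes are not compared, since they are not per length. The result of 1 marker list is not reported here.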

Additional observations from a re-analysis of the deposited data

How the results depend on the processing

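Without the block, the settings that kept 6 libraries left the module at 2 or 3 members higher and 0 lower, except that DESeq2 called 1 lower. The third with no filter was FZD10. With the replicate block, limma called 4 higher and 3 lower, edgeR 4 and 3, and DESeq2 5 and 4, adding DKK2 and TCF7. Over all genes limma called 332 higher and 47 lower without the block and 640 and 218 with it, edgeR 608 and 206 with it, and DESeq2 542 and 159 without it and 743 and 306 with it. For the other pathway genes, 4 were lower in limma with the block, 3 in edgeR with it, and 1 and 4 in DESeq2 without and with it. Apart from these and the calls named in the report, the block changed no call among the 42 members in limma, edgeR or DESeq2.

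When a single library was omitted and no block used, 0 to 2 members were higher and 0 to 1 lower (139 to 365 and 9 to 72 of all genes, 5 to 6 and 0 to 1 of the other pathway genes); the fewest higher members and genes came without Dox+ 3. When blocked fits omitted pair 1, 2 or 3, the module had 3, 6 and 8 members higher and 2, 5 and 7 lower, all genes had 602, 934 and 917 higher and 188, 276 and 537 lower, and the other pathway genes had 7, 7 and 11 higher and 2, 2 and 7 lower. Such fits have 1 residual degree of freedom, and their p-values lean on variance borrowed across genes. The median over members was -0.0256 without Dox- 2 and 0.20 in the blocked fit without pair 1, against 0.08. Scaling by TMM moved the median of all genes by -0.0004. The cause of these differences was not tested.

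The sign turned for 10 members that did not pass, only where a library or pair was left out. With 1 library left out, log2 fold changes ranged from -0.0040 to 0.29 (FZD7), -0.67 to 0.22 (DKK3), -0.12 to 0.31 (ROR2), -0.68 to 0.57 (LEF1), -0.52 to 0.0185 (TCF7L1), -0.81 to 0.13 (NKD1), -0.20 to 0.31 (ROR1), -0.56 to 1.67 (SFRP5), -0.79 to 0.0170 (FZD5) and -0.0343 to 0.50 (NKD2). In the fits with the replicate block, the turned values were 0.0987 (DKK3), -0.0232 (ROR2) and -0.0174 (NKD2) without pair 2, 0.53 (LEF1), 0.0479 (NKD1) and 0.31 (FZD5) without pair 1, and 0.12 (NKD1) and -0.25 (ROR1) without pair 3. Of the 13 untested members 6 had 0 reads in all 6 libraries, and whether depth limited the detection of any of the 13 was not tested.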
